A study of Solanum lycopersicum with 8 samples.

Results

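Chromosome 6 of tomato (Solanum lycopersicum) was described in 2 lists that the authors deposited for the whole series, a list of accessible regions of the leaf and a list of chromatin loops of the inflorescence. Its members were chosen by chromosome name: all peaks on SL4.0ch06 of the leaf list, which were 5862 of 69690, and all loops on chromosome 6 of the loop list, which were 791 of 9573. The leaf list came from ATAC-seq, in which a transposase cuts open chromatin, on terminal leaflets that were cut from young M82 leaves in 6 biological replicates, whose genotype label reads M82 although the growth text of the labels names anantha plants. The loop list came from Hi-C, in which DNA ends that lie close together in the nucleus are joined and sequenced, on 2 biological replicates of inflorescences of the anantha-e1546 mutant in the M82 background, taken from different plants 10 weeks after sowing. The anantha inflorescence is a cauliflower-like mass rich in meristems, so the tissue differs between the lists, and the genotype differs if the leaf label is right. Each list combines its replicates and carries no value per replicate, so the spread between replicates and the read depth are unknown, and each value below is a single value of a combined list. Intervals given with shares are exact binomial 95% intervals that cover counting error only.

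Nuclear DNA is wrapped into chromatin, and the stretches that are left accessible are mostly promoters and other regulatory sequence. In tomato, gene-rich euchromatin lies in the distal parts of the chromosome arms, and a long block of repeat-rich heterochromatin surrounds each centromere. Chromosome 6 has a short arm and a longer arm and carries SELF-PRUNING, the gene that separates determinate from indeterminate growth. Chromatin loops bring distant sites together, among them regulatory sequence and the promoters it acts on.

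Chromosome 6 had the shortest extent of the 12 chromosomes in both lists, with a typical number of peaks and loops. Its last peak ended at 47.2 Mb of SL4.0, against 65.9 ± 9.63 Mb for the other chromosomes (SD, n = 11 chromosomes; range 53.4 to 90.8 Mb). The 5862 peaks compared with 5753 ± 1427 on the others, the fifth highest count. The density was therefore high, at 124 peaks per Mb on chromosome 6 against 87.8 ± 21.7 peaks per Mb on the others, which was exceeded only by 141 peaks per Mb on chromosome 2. Peaks covered 11.1% of the extent of chromosome 6, against 7.91 ± 2.21% on the others. In the loop list, whose assembly is not named and whose positions are not those of SL4.0, the last anchor of chromosome 6 ended at 52.2 Mb, against 68.1 ± 9.29 Mb. The 791 loops compared with 798 ± 246, and the density of 15.1 loops per Mb with 11.8 ± 3.82 loops per Mb. Chromosome 6 held 8.48% of the chromosomal peaks in 6.12% of the summed extent, and 8.26% of the loops in 6.52% of theirs.

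These differences could not reach the 0.05 threshold, because chromosome 6 is a single chromosome of a single list. An exact two-sided permutation of the chromosome label over 12 chromosomes cannot give a p below 0.0833. Over the 65 measures compared in this way, the lowest exact permutation p was 0.0833 and the lowest Benjamini-Hochberg adjusted p was 0.602, so no measure passed. For peak density the exact permutation p was 0.167 (adjusted 0.602), and for loop density it was 0.333 (adjusted 0.867). Chromosome 6 was taken up as the chromosome with the shortest peak extent. Density divides by an extent and long gaps are parts of one, so their ranks and p-values follow in part from that choice. Chromosomes are not biological replicates, and the ranks below describe these lists.

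Along chromosome 6 the leaf peaks formed a short dense block at the start, a long sparse stretch, a small island, a further sparse part and a long dense arm. The sparse stretch was taken as the longest run of 1 Mb windows that each held under 0.5 times the mean of 123 peaks per full window. It ran from 6 to 22 Mb and is flanked by what is here called the short-arm side, from 0 to 6 Mb, and the long-arm side, from 22 Mb to the end; the list does not mark the centromere. The short-arm side held 902 peaks, or 150 per Mb, the sparse stretch 282 peaks, or 17.6 per Mb, and the long-arm side 4678 peaks, or 185 per Mb. Since the stretch was defined by counts, its low density is a description.

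On the short-arm side, the windows from 0 to 4 Mb held 213, 263, 174 and 147 peaks in order. The next 2 windows held 43 and 62, so 797 of the 902 peaks of this side lay in its first 4 Mb. Inside the sparse stretch, the 16 windows ranged between 2 and 54 peaks, and the lowest were the windows at 15 to 16 Mb with 2 peaks, at 20 to 21 Mb with 3 and at 13 to 14 Mb with 4. The windows at 12 to 13 Mb and at 19 to 20 Mb followed with 6 each. No full window of chromosome 6 was empty.

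The island lay at 22 to 24 Mb, where the windows held 74 and 76 peaks, after 54 peaks in the last window of the sparse stretch. Beyond it, from 24 to 29 Mb, the density was 20.6 peaks per Mb, close to the 17.6 of the sparse stretch. From 29 to 33 Mb it was 102 peaks per Mb, from 33 to 38 Mb 213 peaks per Mb, and from 38 Mb to the end 319 peaks per Mb. The densest windows were at 45 to 46 Mb with 364 peaks, at 40 to 41 Mb with 350, at 46 to 47 Mb with 335, at 41 to 42 Mb with 330 and at 44 to 45 Mb with 309. All windows past 38 Mb thus held at least 279 peaks apart from the incomplete last one. These borders within the long-arm side were drawn after the counts had been seen. The length of the stretch depended on its threshold: it was 9 Mb long (12 to 21 Mb) with windows under 0.25 times the mean and 29 Mb long (4 to 33 Mb) with windows under the mean.

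**Figure D1:**
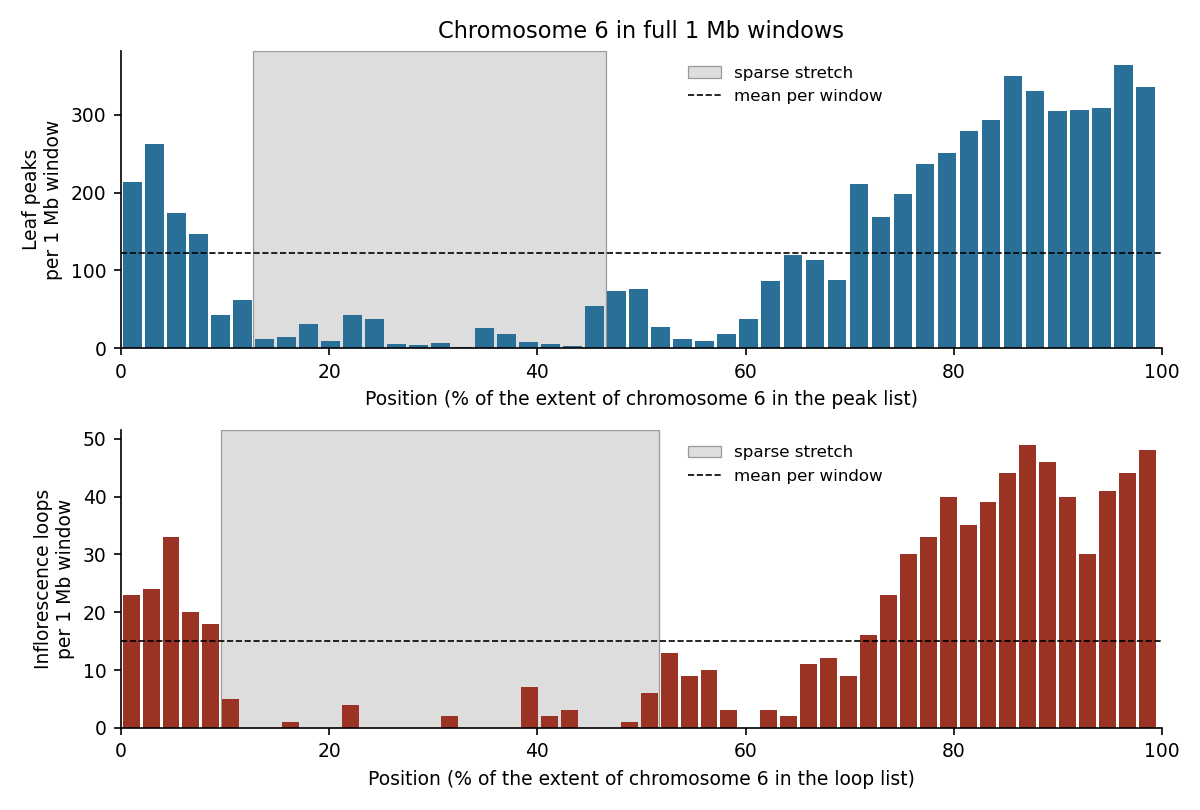
Number of leaf peaks (top, blue bars) and of inflorescence loops (bottom, red bars) in each full 1 Mb window of chromosome 6, against the position of the window as a percentage of the chromosome's extent in that list. Grey areas are the sparse stretches of 16 Mb (peaks) and 22 Mb (loops), and dashed lines are the means of 123 peaks and 15.0 loops per window; both lists show a short block at the start and a long block that begins well before the end.

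Measured in parts of the extent, the long arm reached further into the middle of chromosome 6 than on most chromosomes. That extent was the shortest of the 12 chromosomes, and arm lengths in Mb were not compared. When each extent was cut into 10 equal parts, part 8 of chromosome 6 held 1029 peaks, or 17.6% of its list, against a median of 4.79% on the other chromosomes (range 1.27 to 21.4%). Part 7 held 7.68%, against 2.73% (range 1.79 to 16.9%). Both were the second highest of 12. At the outermost part of the long arm the order was the opposite, with 26.6% of the peaks of chromosome 6 in part 10, against 34% (range 25.9 to 41.7%). Part 5, in which the island begins, held 3.26%, against a median of 2.01%, and ranked 2 of 12 from the highest. Part 6, just past the midpoint, held 1.60%, against a median of 1.68%, and ranked 7 of 12 from the highest. Part 4 held 60 peaks, or 1.02%, the lowest share of any chromosome in that part. Part 1 held 14%, against 23.8%, so the short-arm side was also small.

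Accordingly, the contrast between the ends and the interior was weaker on chromosome 6 than on most chromosomes. Taking the first and last 20% of the extent as ends, the ratio of peak densities was 3.08-fold on chromosome 6 against 6.91 ± 2.32-fold on the others, and only chromosome 2 had a lower ratio, of 1.55-fold (exact permutation p = 0.167, adjusted 0.602). The first 20% held 964 peaks, or 16.4% (15.5 to 17.4%), the interior 1921, or 32.8% (31.6 to 34%), and the last 20% held 2977, or 50.8% (49.5 to 52.1%). The share in the last 20% was that of the other chromosomes, 50.9 ± 9.06%, while the interior share of the others was 20.1 ± 10.1%. The median full window held 74 peaks on chromosome 6, against a mean of 32.1 ± 13.2 for the medians of the others, and this was the highest of the 12 chromosomes (exact permutation p = 0.0833, adjusted 0.602). Windows with at least 200 peaks made up 14 of 47 full windows, or 29.8%, against 139 of 719 windows, or 19.3%, on the others. Windows with under 10 peaks were as common as elsewhere, at 19.1% of windows on chromosome 6 and 19.2% on the others.

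**Figure D2:**
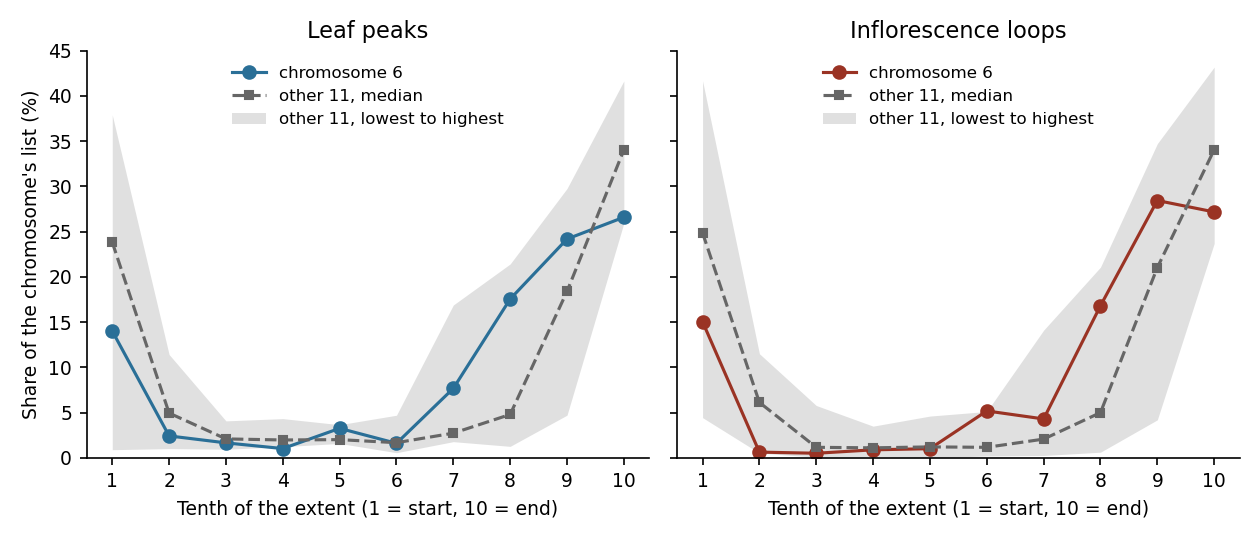
Share of each chromosome's peaks (left) and loops (right) in 10 equal parts of its extent. Filled circles are chromosome 6, grey squares the median of the other 11 chromosomes and the grey band their range; chromosome 6 lies above the median in parts 7 to 9 and below it in parts 1, 2 and 10 of both lists.

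Most of the difference in extent from the mean of the other chromosomes lay in long gaps between peaks, which are themselves parts of the extent. Gaps between neighbouring peaks of over 100 kb numbered 76 on chromosome 6, the fewest of all chromosomes, against 136 ± 25.7 on the others (exact permutation p = 0.0833, adjusted 0.602). They summed to 18.0 Mb, against 35.3 ± 7.09 Mb. The rest of the extent was 29.3 Mb, against 30.6 ± 4.51 Mb, the seventh highest of 12. Chromosome 6 was thus 18.7 Mb shorter than the mean of the others, of which 17.4 Mb was in the long gaps and 1.33 Mb in the rest. With gaps of over 50 kb, a limit added after seeing the data, the long gaps summed to 23.2 Mb against 42.3 Mb and the rest was 24.1 Mb against 23.7 Mb. How much of a gap is assembly gap, or repeat in which reads cannot be placed, was not tested.

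**Figure D3:**
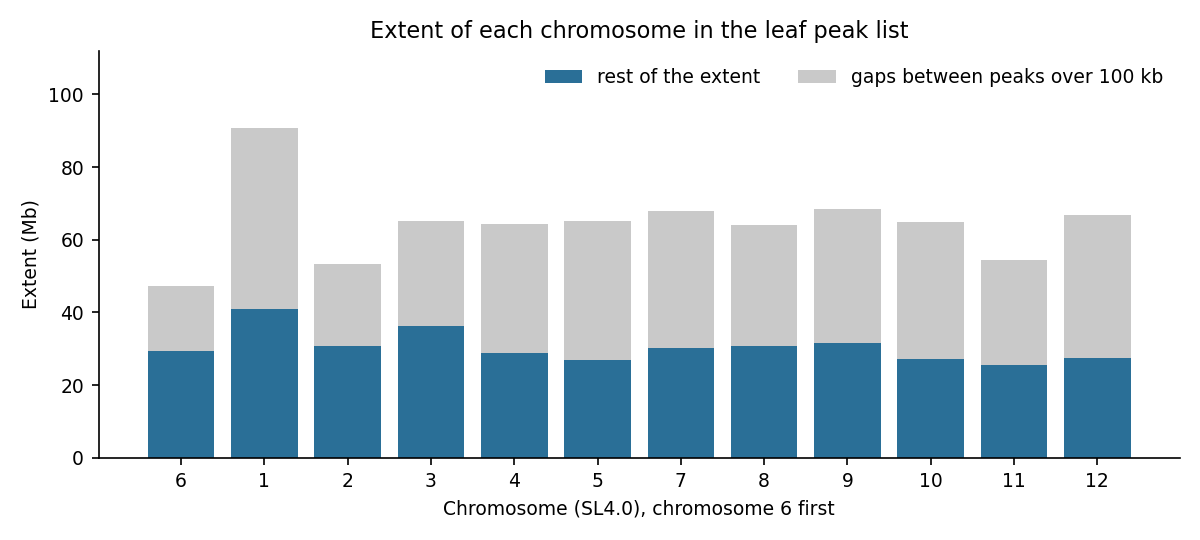
Extent of each chromosome in the leaf peak list (Mb), as gaps between neighbouring peaks of over 100 kb (grey) and the rest (blue), with chromosome 6 at the left. Chromosome 6 has the smallest sum of long gaps, 18.0 Mb, and a rest of 29.3 Mb within the range of 25.6 to 40.9 Mb of the others.

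Of the 76 long gaps, 45 lay in the sparse stretch, where they took up 12.4 of its 16 Mb, and 15 lay between 24 and 29 Mb, where they took up 3.41 of 5 Mb. The longest spanned 15239258 to 16009504 and measured 770 kb. The next were 749 kb at 19028649 to 19777785, 675 kb at 18352205 to 19027308, 598 kb at 19807334 to 20405235, and 452 kb at 20613032 to 21065454 (SL4.0). All but the first of these followed each other between 18.4 and 21.1 Mb, with 9 peaks among them. The longest gap was nevertheless shorter than the longest of any other chromosome, where it ranged from 884 to 2139 kb. Past 38 Mb the longest gap was 62.4 kb.

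Most gaps were short. The median gap on chromosome 6 was 881 bp, with quartiles of 181 and 3478 bp, against a mean of 916 ± 110 bp for the medians of the others. Gaps under 1 kb made up 52.1% (50.8 to 53.4%), against 52.0 ± 2.41%, and gaps under 100 bp 18.3%, against 18.4 ± 1.19%. Both shares lay within the spread of the other chromosomes. Within chromosome 6 the median gap was 807 bp on the short-arm side, 4564 bp in the sparse stretch and 851 bp on the long-arm side, and gaps under 1 kb made up 53.3%, 31.8% (26.4 to 37.6%) and 53.1% in the same order.

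Peak width had nearly the same median in the sparse stretch and on both sides of it. The median width was 664 bp on chromosome 6, with quartiles of 454 and 1020 bp and a range from 130 to 13807 bp, and the medians of the other chromosomes averaged 665 ± 12.5 bp. Between 300 bp and under 1000 bp lay 67.0% of the peaks of chromosome 6 and 66.8% of those on the others. The 34 peaks wider than 5 kb made up 0.58%, against 0.69% on the others. The median was 669 bp in the sparse stretch and 663 bp on the long-arm side, a difference of 5.5 bp, and it was 667 bp on the short-arm side. Smaller pieces differed more, with a median of 813 bp at 4 to 6 Mb and 610 bp in the island at 22 to 24 Mb. The other chromosomes had a mean difference of −41.1 ± 45.6 bp between stretch and following side (exact permutation p = 0.333, adjusted 0.867). With peaks within 150 bp merged, the difference on chromosome 6 was 34 bp, against a mean of −86.3 bp on the others.

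The significance of the peaks did vary along the chromosome. The caller's −log10 q had a median of 2.55 on chromosome 6, against a mean of 2.57 ± 0.04 for the medians of the others. In the sparse stretch the median was 1.99, against 2.60 on the long-arm side, a difference of −0.61, where the other chromosomes had −0.28 ± 0.23 (exact permutation p = 0.25, adjusted 0.855). Peaks at the score ceiling of 1000 made up 30.5% in the sparse stretch (25.2 to 36.2%) and 44.7% on the long-arm side (43.2 to 46.1%). A q above 0.05 was listed for 10.6% of the peaks in the sparse stretch (7.29 to 14.8%) and for 2.59% on the long-arm side (2.15 to 3.08%). The sparse stretch includes 1 block of 65 peaks between 9840412 and 11205669, none of them at the ceiling. The block was picked for that trait, so leaving it out had to raise the share at the ceiling. No block was left out on the long-arm side or on the other chromosomes. Without the block, an alternative added after seeing the data, 86 of 217 peaks of the stretch were at the ceiling, or 39.6% (33.1 to 46.5%), its median −log10 q was 2.34, the difference from the long-arm side was −0.27, and a q above 0.05 was listed for 5.53% (2.89 to 9.46%). The score ceiling and the q are the authors' values per peak and were used only within this list.

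Peaks of the island and of the part from 29 to 33 Mb stood higher in the caller's statistic than those of the outer long arm. The median −log10 q was 2.92 in the island at 22 to 24 Mb, 2.12 from 24 to 29 Mb, 2.85 from 29 to 33 Mb, 2.63 from 33 to 38 Mb and 2.55 past 38 Mb, in order along the chromosome. The share at the score ceiling was 53.3% (45 to 61.5%) in the island and 51.0% (46.0 to 55.9%) from 29 to 33 Mb, against 42.9% (41.1 to 44.7%) past 38 Mb. On chromosome 6 that share varied with width, at 67.5% under 300 bp, 35.6% for 300 to under 1000 bp and 91.2% over 5000 bp. Over the 39170 peaks of the whole list below the ceiling, the lowest (score + 0.5) × width / 1000 was 200.07. Narrow peaks thus stood in the list only with high scores, and the share under 300 bp is no measure of strength. Median widths were 610 bp in the island, 639 bp from 29 to 33 Mb and 681 bp past 38 Mb. How far width accounts for the difference in share was not tested. The first 20% of the extent had a median −log10 q of 2.44 and the last 20% had 2.56. The difference of median −log10 q, interior minus ends, was 0.07, the highest of the 12 chromosomes, against −0.21 ± 0.14 on the others (exact permutation p = 0.0833, adjusted 0.602). Within the interior, the part before the midpoint had a median of 2.19 over 348 peaks, and the part after it had 2.67 over 1573 peaks.

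**Figure D4:**
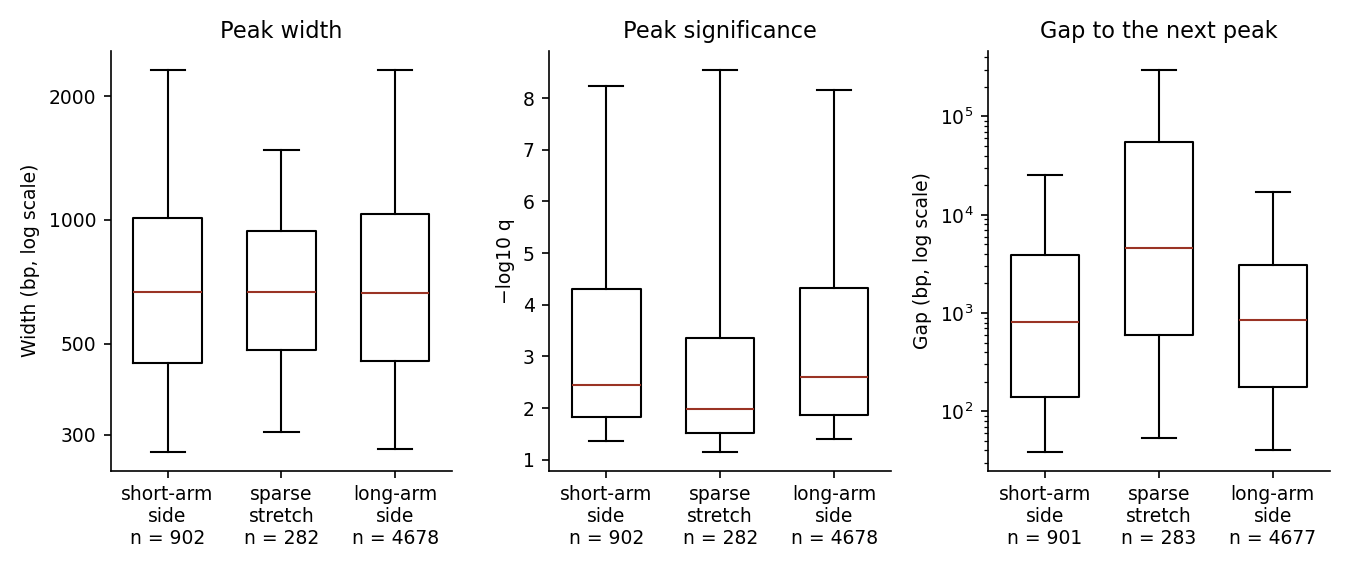
Peak width (left, bp, log scale), −log10 q (middle) and gap to the next peak (right, bp, log scale) on the short-arm side, in the sparse stretch and on the long-arm side of chromosome 6. Boxes span the quartiles with the median in red, and whiskers run from the 5th to the 95th percentile; median widths are within 6 bp of each other, while the sparse stretch has the lowest median −log10 q and the longest gaps.

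Peaks of chromosome 6 stood in runs, counted here as neighbours joined by gaps under 1 kb. The 5862 peaks made 2809 runs, of which 1525 were single peaks, and 2233 peaks (38.1%) stood in 373 runs of at least 4. The others had 38.7 ± 3.56% in such runs. In the sparse stretch 9.93% of peaks stood in runs of at least 4 and 47.5% stood alone, against 39.1% and 24.8% on the long-arm side. The longest run of any chromosome was on chromosome 6, with 26 peaks between 44893313 and 44935870, against 13 to 24 for the longest runs of the others (exact permutation p = 0.0833, adjusted 0.602). Its peaks covered 84.6% of 42.6 kb, and 17 of the 26 stood at the score ceiling. The fourth longest run, of 17 peaks, began 5.48 kb after its end and reached 44965331. The runs next in length held 19 peaks at 38273394 to 38301121 and 18 peaks at 43249960 to 43291279, and all of these were on the outer long arm.

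The strongest peaks lay on both the long-arm side, which held 79.8% of all peaks of chromosome 6, and the short-arm side, which held 15.4%. Ranked by score and then by −log10 q, the first spanned 37209955 to 37217282, 7328 bp wide with a −log10 q of 15.7, and the second 35865134 to 35868460, with 15.0. The third and the eighth lay near each other, at 40776055 to 40778516 (−log10 q 14.6) and at 40743828 to 40746379 (13.6). The fourth, at 41127785 to 41132683 (14.4), and the seventh, at 41657626 to 41658976 (13.9), lay within 1 Mb of them. The fifth, at 35302639 to 35303288 with 14.1, was only 650 bp wide. The sixth and the tenth lay on the short-arm side, at 194766 to 196226 (14.1) and at 1809170 to 1810498 (13.5). The ninth, at 31271409 to 31272545 with 13.5, lay in the part where the density of the long arm builds up. The first peak of the chromosome spanned 24004 to 24432 and the last 47247441 to 47249129. No gene was assigned to these positions.

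The widest peak of chromosome 6 lay in the sparse stretch. It spanned 8649077 to 8662883, 13807 bp, with a −log10 q of 8.55, and was the sole peak of the stretch wider than 5 kb. The strongest peak of the stretch lay 0.439 Mb before it, at 8206128 to 8210167, with a −log10 q of 12.9. The next 4 in width were on the long arm, at 39306756 to 39316193 with 9438 bp, at 44904335 to 44913310 with 8976 bp, at 41898727 to 41907697 with 8971 bp and at 34247433 to 34256051 with 8619 bp. The peak of 8976 bp belongs to the run of 26. Of the 34 peaks wider than 5 kb, 26 were on the long-arm side and 7 on the short-arm side, where the widest measured 8136 bp. Of all peaks of chromosome 6, these sides held 79.8% and 15.4%. Wide peaks were strong in the caller's statistic, with a median −log10 q of 8.30 over the 34 wider than 5 kb, against 2.26 for those of 300 to under 1000 bp.

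The longest blocks of neighbouring peaks with none at the score ceiling stood just before and within the sparse stretch. Between 9840412 and 11205669, 65 peaks in a row, the block left out above, had none at the score ceiling, with scores of 226 to 793 and a −log10 q of 0.87 to 2.52. Between 5001139 and 5296506 there were 43 such peaks in a row, with a median width of 1241 bp, scores of 300 to 949 and a −log10 q of 1.07 to 2.81. The next streak of chromosome 6 held 16 peaks, at 42549365 to 42588094 on the outer long arm. The longest such streak on another chromosome held 44 peaks, on chromosome 4, and the median of the other longest streaks was 23. Of 1498 windows of 100 kb with at least 20 peaks over all chromosomes, the median had 43.5% of its peaks at the ceiling, and 2 had none, 1 of them on chromosome 6 and 1 on chromosome 4. In 1 Mb windows the blocks of 43 and 65 peaks appeared at 5 to 6 Mb, with 12.9% of 62 peaks at the ceiling, and at 10 to 11 Mb, with 0 of 43. These blocks were picked out after their values had been seen, and their cause was not tested.

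The loops of the inflorescence had a similar order along chromosome 6 in their own coordinates. The sparse stretch, by the same rule with a mean of 15.0 loops per full window, ran from 5 to 27 Mb and held 31 loops, or 1.41 per Mb. The stretch made up 42.1% of the extent, against 40.5 ± 11.8% on the others. Before it, the short-arm side held 118 loops, or 23.6 per Mb, and after it the long-arm side held 642, or 25.5 per Mb. The first 5 windows held 23, 24, 33, 20 and 18 loops, and the next held 5. Of 52 full windows, 14 held no loop (26.9%), against 24.4 ± 8.35% of windows on the others. With windows under 0.25 times the mean the stretch was 8 Mb long (12 to 20 Mb), and with 0.5 Mb windows it was 14 Mb long (6 to 20 Mb), since a small group of loops at 20 to 23 Mb then ended it.

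A small island of loops followed, at 26 to 30 Mb, with 6, 13, 9 and 10 loops per window, of which the first belongs to the sparse stretch. From 30 to 34 Mb the windows held 3, 0, 3 and 2 loops, from 34 to 38 Mb 11, 12, 9 and 16. Past 38 Mb the 554 loops made a density of 39 loops per Mb, and the windows with most loops were at 45 to 46 Mb with 49, at 51 to 52 Mb with 48, at 46 to 47 Mb with 46, and at 44 to 45 Mb and 50 to 51 Mb with 44 each. By these borders, the loop list also had an island near the middle of its extent, then a thin part and then the dense arm. The borders were drawn after the counts had been seen, and each window of the island held fewer loops than the mean of 15.0. Positions of the lists were not overlaid, since their assemblies differ, and whether the islands of the lists are the same sequence was not tested.

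The loops of chromosome 6 were also less tilted to the ends than on most chromosomes. The ratio of loop densities, ends over interior, was 3.73-fold, against 9.45 ± 4.37-fold, with chromosome 2 lower at 1.67-fold (exact permutation p = 0.333, adjusted 0.867). Part 8 of 10 held 16.8% of its loops, against a median of 5.00% on the others. Part 6, which holds the island, had 41 loops, or 5.18%, barely above the range of 0.21 to 5.12% of the others. It was the only part of either list in which chromosome 6 had the highest share. The interior as a whole held 28.7% (25.6 to 32.0%), against 17.0 ± 10.9%. The lists held 7.41 peaks per loop on chromosome 6 and 7.37 ± 0.90 on the others.

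Loops longer than 200 kb made up a smaller share on chromosome 6 than on any other chromosome of the list, while loops longer than 100 kb made up 11% on chromosome 6 and a lower 10.6% on chromosome 1. The median span of chromosome 6 was 20 kb, with quartiles of 10 and 45 kb, and the medians of the others averaged 23 ± 6.0 kb. The shortest listed span, 10 kb, accounted for 355 loops, or 44.9% (41.4 to 48.4%), against 39.9 ± 4.17%. Loops longer than 200 kb numbered 48, or 6.07% (4.51 to 7.97%), the lowest share of the 12 chromosomes, against 11 ± 3.26% (exact permutation p = 0.167, adjusted 0.602). Chromosome 1 was next, at 6.12%. Loops of over 100 and up to 200 kb were also scarce, at 4.93% against 7.49% of all loops on the other chromosomes. Loops of 15 to 40 kb, at 28.3%, and of 45 to 100 kb, at 15.8%, were slightly above the pooled shares of 26.8% and 14.9%.

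Span depended on where on chromosome 6 a loop lay, as it did on every other chromosome. The median span of the interior was 3.5 times that of the first and last 20% of the extent. On the others the ratio was 10.1 ± 5.18 (range 1.67 to 18.3), and chromosome 6 ranked 10 of 12 from the highest. Within chromosome 6, the stretches differed as follows. The median was 35 kb on the short-arm side, 195 kb in the sparse stretch and 15 kb on the long-arm side. Loops longer than 200 kb made up 16.1% (9.98 to 24%), 48.4% (30.2 to 66.9%) and 2.18% (1.20 to 3.63%) in the same order, and 10 kb loops 31.4%, 12.9% and 48.9%. Past 38 Mb, 298 of 554 loops spanned 10 kb and 1 was longer than 200 kb. The long loops were gathered in a few places: 20 of 48 lay at 3 to 6 Mb, where the dense short-arm block gives way to the sparse stretch, 10 at 29 to 31 Mb, at the far side of the island, and 9 at 20 to 23 Mb. In these windows they were 20 of 43, 10 of 13 and 9 of 12 loops. The places were picked after the counts of long loops had been seen, so these shares are a description. In the window at 4 to 5 Mb the median span was 303 kb, and no loop of 10 kb was listed there.

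**Figure D5:**
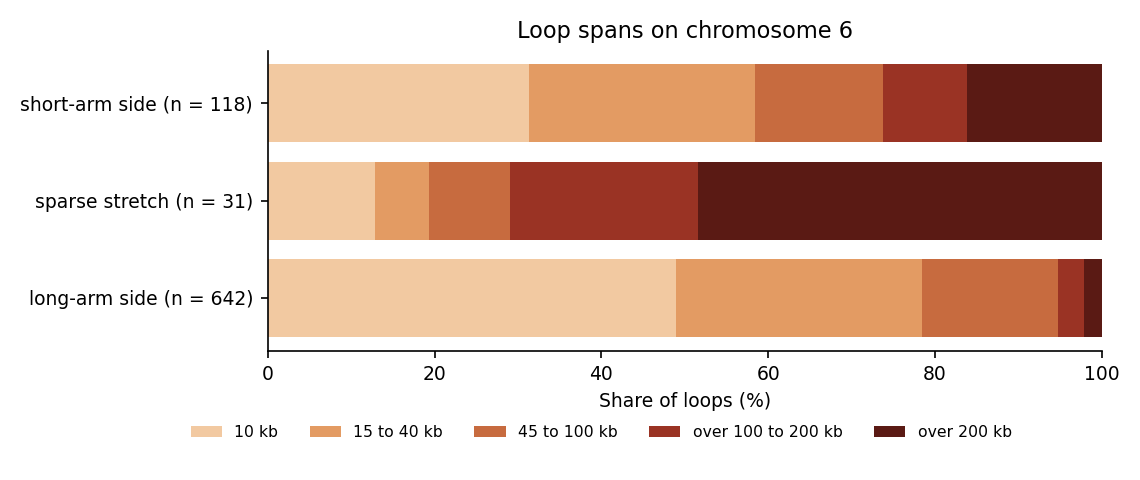
Share of the loops of chromosome 6 in 5 classes of span, for the short-arm side (118 loops), the sparse stretch (31 loops) and the long-arm side (642 loops). The darkest class, over 200 kb, is 48.4% of the loops in the sparse stretch and 2.18% on the long-arm side.

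The longest loop of chromosome 6 spanned 955 kb and joined the bin at 30120001 to 30125000 with that at 31075001 to 31080000. Next in length was a loop of 895 kb between the bins at 11200001 to 11205000 and 12095001 to 12100000, and another of 800 kb between those at 22360001 to 22365000 and 23160001 to 23165000. Loops of 755 kb, between 5220001 to 5225000 and 5975001 to 5980000, and of 740 kb, between 4155001 to 4160000 and 4895001 to 4900000, lay just inside the sparse stretch and just before it (unnamed assembly throughout). None of these lay past 34 Mb. The longest span on any chromosome was 1000 kb, on chromosomes 5, 9 and 11, and whether the list was limited to that span is not known. In the sparse stretch, loops at 11.2 to 12.1 Mb were 4 of the 31 and those at 20.0 to 23.2 Mb were 12, so that 16 of the 31 came from these groups. The border at 5 Mb was crossed by 1 loop and that at 27 Mb by 5. The longest part of chromosome 6 without an anchor measured 4.20 Mb, from 12100001 to 16295000, against a mean of 5.86 ± 2.50 Mb for the others.

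Anchors of chromosome 6 were shared about as often as elsewhere. Its loops used 1300 bins of 5 kb, or 12.4% of the bins in its extent, of which 240 (18.5%, 16.4 to 20.7%) anchored at least 2 loops, against 18.8 ± 2.32% on the others. In the sparse stretch 1 of 61 bins did so. The busiest bin, at 50210001 to 50215000, anchored 5 loops of 10 to 55 kb, of which 4 led toward the start of the chromosome. The 4 bins with 4 loops lay at 4930001 to 4935000, at 40680001 to 40685000, at 46080001 to 46085000 and at 46090001 to 46095000. The bin at 4930001 differed from the rest: its 4 loops spanned 80 to 420 kb and all led toward the start, and it lies at the far end of the short-arm block, while the loops of the other 3 bins spanned 10 to 100 kb.

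Loops joined through shared bins made small sets. On chromosome 6, 46.8% of loops shared no bin with another loop, against 46.3 ± 4.73% on the others. The largest set held 10 loops over 80 kb, at 43715001 to 43795000, and the next 9 loops over 140 kb, at 46055001 to 46195000, which includes the pair of bins with 4 loops each. The largest sets of the other chromosomes held 8 to 25 loops. Sets of 4 or more loops held 17.3% of the loops of chromosome 6, against 20.1 ± 6.48% on the others.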

How the data were processed

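The deposited leaf list holds a start, an end and a score per peak, with the −log10 q in the peak's name; per the file headers and names it is a combined Genrich list on SL4.0. Its score is the authors' whole number with a ceiling of 1000. The deposited loop list holds midpoints of 5 kb anchor bins, with no contact count, q or assembly. The submitters' processing notes name HiC-Pro 3.1.0, Genrich 0.6, BWA, Trimmomatic, SAMtools, bedtools and Picard, with no settings. Peak starts count from 0 in the list, as in BED files, and are given here 1-based. An extent ends with the last peak or anchor bin. Peaks and loops were placed by midpoint, and the 547 peaks on unplaced sequence were not used in comparisons. Values were computed with Python 3.11.15, pandas 2.3.3 and SciPy 1.17.1, and the run and ratio calculations were checked on simulated positions. Chromosome 6 was compared with the others by rank and by exact permutation of the chromosome label. Named regions follow a rule by rank (10 strongest and 5 widest peaks, 5 longest gaps, densest and emptiest windows, 5 longest loops, busiest bins). Members, stretches and rules were chosen with earlier results of these data known. Depth is unknown, no gene was assigned, and no sequence was read because no genome of either assembly was used.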

Additional observations from a re-analysis of the deposited data

How the results depend on the processing

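Over 45 alternatives for 15 results, 38 kept the direction against the other chromosomes or, for counts, stayed within 1.5 times. The peak count of chromosome 6 was 2908 at or above the median score, which is lower by construction, and the loop count was 436 without the 10 kb loops. The median peak width changed sides against the other chromosomes, at 725 bp among peaks at or above the median score, where the others averaged 722 bp. The share of gaps under 1 kb did so too, at 37.6% with peaks within 150 bp merged (others 37.7%) and at 31.9% at or above the median score (others 32.4%); the cause was not tested. These differences were within the spread over chromosomes. The peak density of chromosome 6 was 1.40 to 1.5 times the mean of the others under the alternatives run. No exact permutation p passed the threshold under any of them, which says nothing about stability, since the design could not pass it. The limit of 50 kb for long gaps was chosen after seeing the data. So was leaving out the block of 65 peaks below the score ceiling, without which the difference of median −log10 q between the sparse stretch and the long-arm side of chromosome 6 was −0.27 in place of −0.61 (others −0.28, from which nothing was left out) and the share at the ceiling in the stretch 39.6% in place of 30.5%. Leaving out the block raised that share by construction, since the block was picked for having no peak at the ceiling. No paired analysis was possible because the lists are combined over replicates, which also prevented leaving out any of the replicates. With depth unknown, the absence of a peak or loop gives no limit on what was there.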
